A study of Mus musculus with 10 samples.

Results

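The genes examined were the receptors for corticosteroid hormones and a group of genes that these hormones induce. Their members were listed by symbol: the 2 receptors Nr3c1 and Nr3c2, and the 7 induced genes Fkbp5, Sgk1, Tsc22d3, Cdkn1a, Zbtb16, Errfi1 and Sult1a1. All 9 were among the 12575 genes measured in cortical tissue, and all 9 passed the filter on low values. The samples were 5 BMAL1 aKO mice (Aldh1l1-CreERT2;Bmal1 fl/fl) and 5 Cre- littermates (Bmal1 fl/fl without Cre), on a C57BL/6 background and of mixed sex. The labels give an age of 4 months for both groups, while the study's text gives a later age for its cortex RNA. Both groups carried the floxed Bmal1 alleles and received tamoxifen by gavage, so that the Cre transgene was what set them apart. Cre was driven by the promoter of the astrocyte gene Aldh1l1, so the deletion was aimed at astrocytes, whereas the RNA came from all cells of the tissue. In such bulk RNA, fewer cells of a type and less RNA per cell cannot be told apart. Nothing in the sources links a library to a named animal or cage, and p-values measure the spread between these libraries. The questions were whether the 9 genes differed between BMAL1 aKO and Cre- cortex and whether they varied together from library to library.

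Corticosterone, the main glucocorticoid of the mouse, enters cells and binds the glucocorticoid receptor or the mineralocorticoid receptor in the cytoplasm, where chaperones of the Hsp90 system hold the receptor ready. The bound receptor moves to the nucleus and switches on target genes through DNA elements that contain the letters AGAACA and TGTTCT. Adrenal release of the hormone follows a daily rhythm and rises with stress, so its target genes in the brain are known as readouts of hormone exposure. BMAL1, the protein encoded by Arntl, is a core clock factor that binds E-boxes such as CACGTG together with CLOCK.

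The sequences before 3 of the induced genes are shown as examples of windows that hold these elements. RefSeq promoter windows (GRCm38.p6) were available for 7 of the 9 genes, 16 windows in all. Nr3c1 and Zbtb16 had no entry. In each printed window of 250 bases the last base lies just before the annotated start, and capitals mark every match on either strand to the E-box CACGTG, to the element TGTTCT or to the full hormone response element, which is AGAACA and TGTTCT with 3 free bases between them.
Sgk1, chr10:21993640-21993889, plus strand: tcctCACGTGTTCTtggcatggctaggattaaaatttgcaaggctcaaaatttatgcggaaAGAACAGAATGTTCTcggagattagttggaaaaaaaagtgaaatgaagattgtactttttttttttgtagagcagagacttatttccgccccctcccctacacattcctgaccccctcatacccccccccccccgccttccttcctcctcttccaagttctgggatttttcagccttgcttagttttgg
Fkbp5, chr17:28486150-28486399, minus strand: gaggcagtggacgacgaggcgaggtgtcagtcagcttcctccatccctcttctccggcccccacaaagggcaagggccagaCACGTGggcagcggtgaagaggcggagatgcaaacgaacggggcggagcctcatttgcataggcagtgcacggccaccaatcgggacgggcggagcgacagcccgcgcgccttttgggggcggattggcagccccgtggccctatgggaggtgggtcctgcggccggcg
Tsc22d3, chrX:140600523-140600772, minus strand: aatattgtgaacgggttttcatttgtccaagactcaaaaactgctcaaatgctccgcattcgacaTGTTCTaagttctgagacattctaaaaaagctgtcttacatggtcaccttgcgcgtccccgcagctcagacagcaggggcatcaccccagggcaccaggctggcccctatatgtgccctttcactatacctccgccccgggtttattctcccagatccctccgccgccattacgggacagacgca

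The Sgk1 window held the full 15-letter element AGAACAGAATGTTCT at chr10:21993701-21993715, from position -189 to position -175 before the start. This stretch lies in an intron of the longer Sgk1 gene model of GENCODE M21. Of all 32851 RefSeq windows, 3 held a match to the full element, which is 0.00913%. The same Sgk1 window also held CACGTG from -246 to -241, and its last letters overlap a further TGTTCT. In the Fkbp5 window CACGTG lay from -169 to -164, and in the Tsc22d3 window TGTTCT lay from -185 to -180. Windows not printed also had matches, a Sult1a1 window with TGTTCT from -212 to -207 and AGAACA from -34 to -29, and 2 further Sgk1 windows with 1 such element each. CACGTG occurred in 6.02% of all windows and TGTTCT or its reverse complement AGAACA in 16.1%, a count that includes the copies within the 15-letter element. These matches describe the letters of the windows only, since binding was not measured here.

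Both groups covered a similar range of depth, with 23127338 to 47964460 reads in BMAL1 aKO libraries and 21844770 to 48295715 reads in Cre- libraries. Arntl, the gene targeted by the deletion, averaged 34.5 ± 2.93 CPM in BMAL1 aKO cortex and 34.2 ± 2.25 CPM in Cre- cortex (CPM, reads per gene scaled to the library total, SD, n = 5 each), a log2 fold change of 0.01 with an adjusted p of 0.932 by limma, so it did not separate the groups. The astrocyte marker Aldh1l1 was measured at 32.8 to 44.9 CPM in BMAL1 aKO libraries and 30.3 to 56.7 CPM in Cre- libraries. Of 10 astrocyte markers 8 had a fold change above 0, with a median of 0.10 on the log2 scale, and 1 passed the threshold by limma, the gap junction gene Gja1, at 251.4 ± 22.7 CPM in BMAL1 aKO cortex and 186.9 ± 11.7 CPM in Cre- cortex (SD, n = 5 each, log2 fold change 0.44, adjusted p = 0.0273). Without quality weights and without Cre- replicate 3, 0 of the 10 passed. Xist, which marks female animals, was at 989 and 1089 CPM in BMAL1 aKO replicates 1 and 4 and at 986 and 1051 CPM in Cre- replicates 2 and 3, and at or below 1.42 CPM elsewhere. Cre- replicate 3 stood apart from the other libraries. Its mitochondrially encoded transcripts, 16 genes summed, were at 61929 CPM, against 144920 to 179560 CPM in BMAL1 aKO libraries and 92922 to 198810 CPM in the other Cre- libraries. It also had the highest sums of 8 microglial and 8 striatal markers, 349 and 1575 CPM, the lowest sum of 8 neuronal markers, 7695 CPM, and the smallest quality weight, 0.181. Its values are therefore given by name below, and results that rest on it are given with and without it. Cre- replicate 1 had the largest quality weight, 7.19, against 0.181 to 1.52 in the other Cre- libraries and 0.714 to 1.79 in BMAL1 aKO libraries. The weighted limma values below therefore lean on Cre- replicate 1 for the Cre- group. Without that library 1 gene passed the limma threshold instead of 42, in a fit whose weights did not converge.

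None of the 9 genes passed the threshold, an adjusted p of 0.1 by limma over all genes. By the same test 0.334% of all 12573 genes tested passed, 42 in number, 36 of them higher (0.286%) and 6 lower (0.0477%) in BMAL1 aKO cortex. At an unadjusted p below 0.05 there were 3 of the 9, Nr3c2, Tsc22d3 and Zbtb16, against 16.8% of all genes. The count of members past the adjusted threshold was also 0 without quality weights, where 0.0318% of all genes passed, and 0 by voomWithQualityWeights, where 0.231% passed. Each of these fits had 2 members at an unadjusted p below 0.05, and the share of all genes at that p was not computed for them. Of the 9 fold changes 8 were below 0, as were 61.6% of all genes. The median of the 9 was -0.11 on the log2 scale, and that of all genes -0.04.

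**Figure D1:**
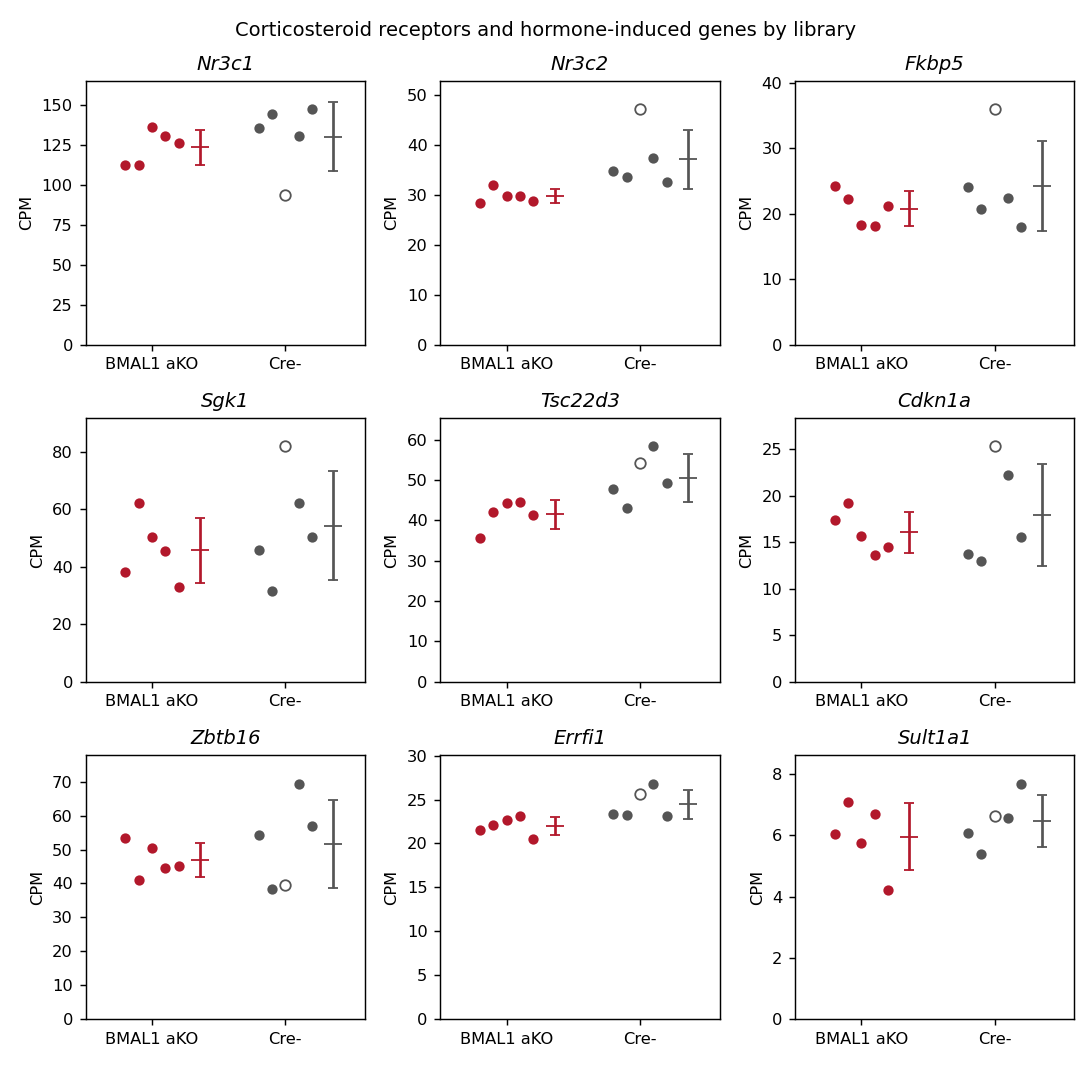
CPM of each gene by library (points), with the mean and SD of the group beside them, 5 BMAL1 aKO libraries at the left and 5 Cre- libraries at the right of each panel. The open point is Cre- replicate 3, which was the highest library for Nr3c2, Fkbp5, Sgk1 and Cdkn1a and the lowest for Nr3c1, and the groups are apart in the Nr3c2 panel only.

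Of the receptors, Nr3c2 showed the larger difference. Nr3c2 encodes the mineralocorticoid receptor, which binds corticosterone with high affinity. It was measured at 28.3, 32.1, 29.8, 29.7 and 28.7 CPM in BMAL1 aKO libraries 1 to 5, against 34.8, 33.6, 47.1, 37.4 and 32.6 CPM in Cre- libraries 1 to 5. Every BMAL1 aKO library lay below every Cre- library, the nearest being 32.1 CPM in BMAL1 aKO replicate 2 and 32.6 CPM in Cre- replicate 5. Of all genes, 0.382% were lower in BMAL1 aKO cortex with no overlap between the groups, and 0.62% were higher in this way. The log2 fold change of Nr3c2 was -0.22 (SE 0.07, 95% interval -0.36 to -0.08), and the adjusted p by limma was 0.182. The two-sided exact permutation test gave p = 0.00794, the smallest p that 5 against 5 libraries allow, and 5.23% of all genes had an exact p below 0.05. Without Cre- replicate 3 the groups still did not overlap, and the difference of the means was -0.22 on the log2 scale (exact permutation p = 0.0159). The difference was -0.25 after TMM scaling, with an exact permutation p of 0.00794.

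Nr3c1 encodes the glucocorticoid receptor itself. It was measured at 112.6, 112.3, 136.2, 130.9 and 126.5 CPM in BMAL1 aKO libraries 1 to 5, against 135.8, 144.6, 93.6, 130.6 and 147.6 CPM in Cre- libraries 1 to 5. The groups overlapped, and Cre- replicate 3, which was the highest library for Nr3c2, was the lowest for Nr3c1. The log2 fold change was -0.11 (SE 0.07, 95% interval -0.27 to 0.04, limma adjusted p = 0.427), and the exact permutation test gave p = 0.698. Without Cre- replicate 3 the difference of the means was -0.18 on the log2 scale, against -0.06 with it, and the exact permutation p was 0.0794. Per kilobase of exon, Nr3c1 was the most abundant of the 9, at 16.1 CPM per kb in BMAL1 aKO cortex and 17.0 CPM per kb in Cre- cortex, and Nr3c2 was at 4.59 CPM per kb in BMAL1 aKO cortex and 5.73 CPM per kb in Cre- cortex.

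Tsc22d3 had the smallest limma p of the induced genes. It encodes GILZ, a leucine zipper protein through which glucocorticoids restrain inflammatory transcription. It was measured at 35.6, 42.1, 44.2, 44.6 and 41.3 CPM in BMAL1 aKO libraries 1 to 5, against 47.8, 43.0, 54.1, 58.3 and 49.4 CPM in Cre- libraries 1 to 5. Only Cre- replicate 2 fell within the range of the BMAL1 aKO libraries. The log2 fold change was -0.19 (SE 0.07, 95% interval -0.35 to -0.04, limma adjusted p = 0.211). An exact permutation test gave p = 0.0238 on the deposited CPM and p = 0.0317 without Cre- replicate 3, where the groups still overlapped. After TMM or median-of-ratios scaling they no longer overlapped (exact permutation p = 0.00794 for each). After quantile normalization they did overlap (exact permutation p = 0.0159).

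Errfi1 encodes an inhibitor of the EGF receptor. It was measured at 21.5, 22.1, 22.6, 23.2 and 20.5 CPM in BMAL1 aKO libraries 1 to 5, against 23.4, 23.3, 25.7, 26.8 and 23.1 CPM in Cre- libraries 1 to 5. The groups overlapped by 1 library, BMAL1 aKO replicate 4, which lay above Cre- replicate 5. Errfi1 had a log2 fold change of -0.09 (SE 0.06, limma adjusted p = 0.472). The exact permutation p was 0.0159 on the deposited CPM, 0.0238 without Cre- replicate 3 and 0.0635 after TMM scaling. The members with an exact permutation p below 0.05 on the deposited CPM were thus 3 of 9, Nr3c2, Tsc22d3 and Errfi1, against 5.23% of all genes. For Errfi1 the exact permutation p was 0.0556 after median-of-ratios scaling and 0.0714 after quantile normalization. After each of these scalings and TMM, only Nr3c2 and Tsc22d3 were below 0.05.

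Fkbp5, Sgk1 and Cdkn1a shared 1 feature, a highest value in Cre- replicate 3. Fkbp5 encodes FKBP51, a co-chaperone that lowers the affinity of the glucocorticoid receptor for its hormone in a negative feedback loop. Its values were 24.2, 22.3, 18.2, 18.1 and 21.2 CPM in BMAL1 aKO libraries 1 to 5, against 24.1, 20.8, 35.98, 22.4 and 18.02 CPM in Cre- libraries 1 to 5. Apart from Cre- replicate 3 the groups covered the same range. The log2 fold change was -0.19 (SE 0.11, 95% interval -0.43 to 0.04, limma adjusted p = 0.375), and the difference of the plain means was -0.19 with that library and -0.04 without it (exact permutation p = 0.841).

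Sgk1 encodes a kinase that acts on ion channels and transporters, and it has the hormone response element printed above. It was measured at 38.1, 62.1, 50.2, 45.4 and 32.9 CPM in BMAL1 aKO libraries 1 to 5, against 45.6, 31.5, 81.8, 62.0 and 50.2 CPM in Cre- libraries 1 to 5. The range within each group was wider than the difference between them, and both groups held low and high libraries. In the weighted fit its log2 fold change was -0.06 (SE 0.14, 95% interval -0.37 to 0.25, limma adjusted p = 0.846). The difference of the plain means was -0.21 (exact permutation p = 0.492), and -0.04 without Cre- replicate 3 (exact permutation p = 0.897).

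Cdkn1a encodes p21, an inhibitor of cyclin-dependent kinases. Its values were 17.3, 19.1, 15.7, 13.7 and 14.4 CPM in BMAL1 aKO libraries 1 to 5, against 13.7, 13.0, 25.3, 22.2 and 15.6 CPM in Cre- libraries 1 to 5. In the Cre- group replicates 3 and 4 lay above all BMAL1 aKO libraries and replicate 2 lay below them. Cdkn1a had a log2 fold change of 0.10 (SE 0.12, limma adjusted p = 0.671), the only one of the 9 above 0, and the difference of the plain means had the other sign, -0.12 (exact permutation p = 0.587). Without Cre- replicate 3 the difference of the plain means was 0.017 (exact permutation p = 0.937).

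Zbtb16 encodes the zinc finger transcription factor PLZF. It was measured at 53.5, 41.0, 50.4, 44.4 and 45.0 CPM in BMAL1 aKO libraries 1 to 5, against 54.2, 38.2, 39.6, 69.5 and 57.0 CPM in Cre- libraries 1 to 5. The BMAL1 aKO libraries lay within the range of the Cre- libraries. Its log2 fold change was -0.21 (SE 0.09, limma adjusted p = 0.281), and the difference of the plain means was -0.11 (exact permutation p = 0.563). Sult1a1, which encodes an enzyme that attaches sulfate to phenols, was the lowest of the 9 in CPM, at 4.23 to 7.09 CPM in BMAL1 aKO libraries and 5.40 to 7.69 CPM in Cre- libraries. Its groups overlapped, with a log2 fold change of -0.11 (SE 0.13, limma adjusted p = 0.655).

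**Figure D2:**
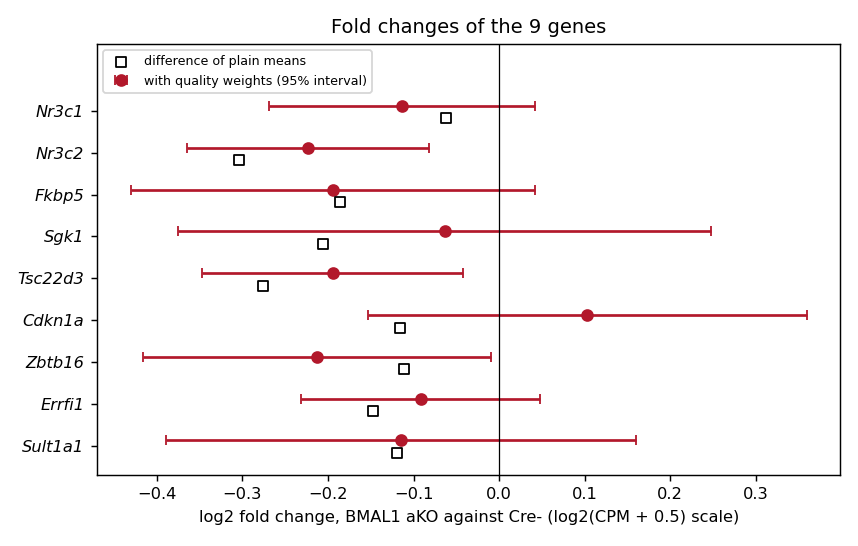
Log2 fold change of each gene, BMAL1 aKO against Cre-, on the log2(CPM + 0.5) scale. Filled points with bars are limma estimates with quality weights and their 95% intervals, and open squares are differences of plain means. The intervals of Nr3c2, Tsc22d3 and Zbtb16 lie below 0, and the Cdkn1a point and square fall on opposite sides of 0.

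Other members of the pathway were examined as lists. Beside their counts below, 61.6% of all genes had a fold change below 0 and 16.8% an unadjusted p below 0.05 by limma. The median log2 fold change of all genes was -0.04, and -0.0021 after TMM scaling, where the share below 0 was not computed. None of the 24 further hormone-induced genes measured passed the limma threshold. In that list 10 fold changes were above 0 and 14 below, with a median of -0.06 on the log2 scale, and 8 had an unadjusted p below 0.05. The 3 with the smallest p were all above 0. Pdk4, a kinase that holds back pyruvate dehydrogenase, averaged 13.0 ± 2.53 CPM in BMAL1 aKO cortex and 9.34 ± 1.29 CPM in Cre- cortex (SD, n = 5 each), a log2 fold change of 0.55 with a limma adjusted p of 0.123. Pdk4 was past the limma threshold after TMM scaling (0.59, adjusted p = 0.0882), median-of-ratios scaling (adjusted p = 0.0943) and quantile normalization (adjusted p = 0.0992), where 0.541%, 0.493% and 0.517% of all genes passed. The metallothioneins Mt1 and Mt2, which bind zinc and copper, were at 0.38 (limma adjusted p = 0.159) and 0.35 (adjusted p = 0.188) on the log2 scale. Their differences of plain means were smaller, 0.22 (exact permutation p = 0.198) and 0.096 (exact permutation p = 0.571). For Pdk4 the difference of plain means was 0.44 (exact permutation p = 0.0238). Mt1 averaged 253 CPM in BMAL1 aKO cortex and 218 CPM in Cre- cortex, and Mt2 averaged 114 CPM in BMAL1 aKO cortex and 107 CPM in Cre- cortex. These 3 genes and the Nr3c2 and Tsc22d3 values above thus had weighted fold changes of opposite sign, and none passed the threshold in the comparison given first. Without BMAL1 aKO replicate 3, where 6.7% of all genes passed instead of 0.334%, Pdk4 (0.63, limma adjusted p = 0.0576), Mt1 (0.47, adjusted p = 0.0589) and Plin4, which encodes a lipid droplet protein (-1.16, adjusted p = 0.0792), passed. With oligodendrocyte markers as a covariate, where 10.8% of all genes passed, 6 of the 24 did, Pdk4 and Mt1 above 0 and Dusp1, Hif3a, Plin4 and Gpd1 below 0.

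**Figure D3:**
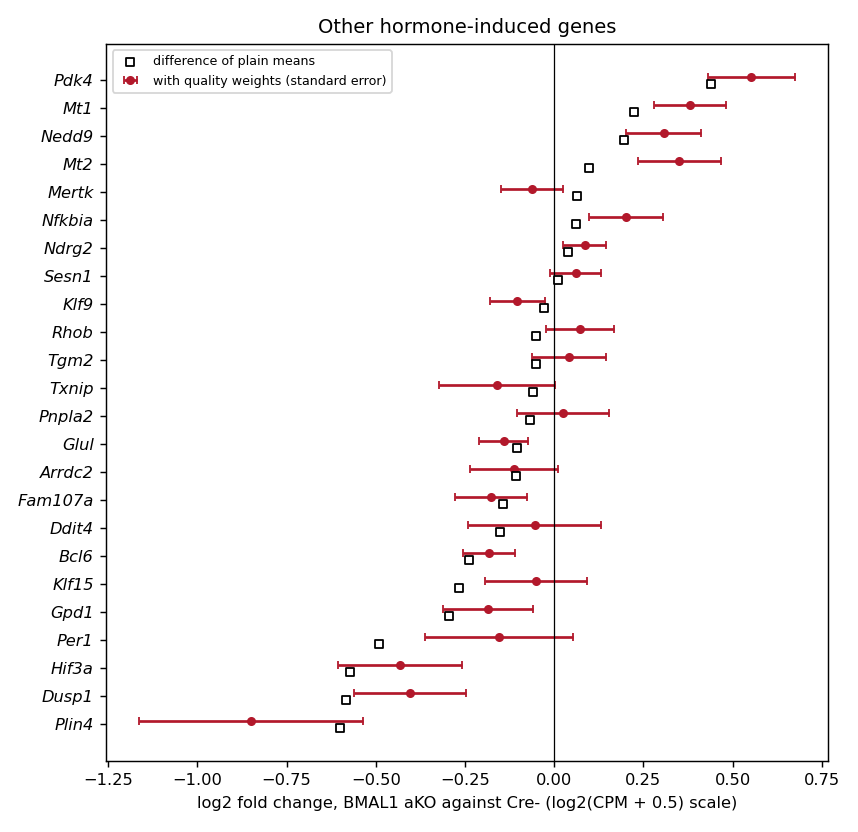
Log2 fold change, BMAL1 aKO against Cre-, of 24 further hormone-induced genes on the log2(CPM + 0.5) scale, ordered by the difference of plain means. Filled points with bars are limma estimates with quality weights and standard errors, and open squares are differences of plain means. Points lie on both sides of 0, with Pdk4, Mt1 and Mt2 the genes with the smallest p.

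The receptor coregulators all had fold changes below 0, 12 of 12, with a median of -0.15 on the log2 scale, beside 61.6% of all genes below 0. None passed the threshold and 6 had an unadjusted p below 0.05 by limma, against 16.8% of all genes. After TMM scaling 12 were below 0, with a median of -0.11, and without weights 10 of 12 were. The smallest p were those of Tdg, a DNA glycosylase, at -0.24 (adjusted p = 0.185), of Med1, the Mediator subunit that contacts nuclear receptors, at -0.21 (adjusted p = 0.197), and of the coactivator Ncoa2 at -0.21 (adjusted p = 0.202). For Ncoa2 the mean was 117.9 ± 9.77 CPM in BMAL1 aKO cortex and 141.8 ± 19.9 CPM in Cre- cortex (SD, n = 5 each). Among 12 receptor chaperones, 8 fold changes were below 0, 7 after TMM scaling, none passed and 3 had an unadjusted p below 0.05 by limma. The co-chaperone Stip1 was at -0.22 (limma adjusted p = 0.204), the heat shock cognate Hspa8 at -0.19 (adjusted p = 0.211) and the co-chaperone Bag1 at 0.22 (adjusted p = 0.247).

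Of 8 genes known to be repressed by the hormone 4 were measured, and none passed the limma threshold, 1 having an unadjusted p below 0.05. The stress peptide gene Crh was at 0.33 on the log2 scale (adjusted p = 0.225), the prostaglandin synthase gene Ptgs2 at -0.20 (adjusted p = 0.443) and the neurotrophin gene Bdnf at -0.12 (adjusted p = 0.472). Genes of hormone activation and transport, 4 of 6 measured, did not pass either, with 1 at an unadjusted p below 0.05. Hsd11b1, whose enzyme regenerates active corticosterone inside cells, averaged 6.09 ± 2.04 CPM in BMAL1 aKO cortex and 8.204 ± 1.99 CPM in Cre- cortex (SD, n = 5 each), with a log2 fold change of -0.44 and a limma adjusted p of 0.258. The efflux pump gene Abcb1a was at 0.11 (adjusted p = 0.496) and the steroid reductase gene Srd5a1 at 0.06 (adjusted p = 0.833). The median of this list was -0.0017 in the weighted fit and -0.18 in plain means.

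Relatives and partners of the 9 genes gave 12 of 15 measured and none past the threshold, with 6 fold changes on each side of 0 and 1 at an unadjusted p below 0.05 by limma. Egfr, the receptor that the Errfi1 product inhibits, was at 0.24 on the log2 scale (limma adjusted p = 0.238). Cdkn1c, a relative of Cdkn1a, was at 0.30 (adjusted p = 0.298), and Nedd4l, a ubiquitin ligase that the Sgk1 kinase phosphorylates, at -0.10 (adjusted p = 0.400). The list's median was 0.02 in the weighted fit and -0.03 in plain means.

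Since glucocorticoid release is rhythmic, 16 clock genes were placed beside the members. None passed the limma threshold, and 13 of the 16 fold changes were below 0, with a median of -0.14 on the log2 scale and 5 at an unadjusted p below 0.05. Among all genes 61.6% were below 0 and 16.8% had an unadjusted p below 0.05 by limma. After TMM scaling 12 of 16 were below 0. Nr1d1, a repressor driven by BMAL1, averaged 83.4 ± 10.7 CPM in BMAL1 aKO cortex and 115.4 ± 20.8 CPM in Cre- cortex (SD, n = 5 each), with no overlap between the groups (exact permutation p = 0.00794), a log2 fold change of -0.35 and a limma adjusted p of 0.154. Dbp, an output gene of the clock, was at -0.53 (adjusted p = 0.182) and the period gene Per3 at -0.32 (adjusted p = 0.246). Immediate early genes, which mark recent neuronal activity, summed to 614 to 939 CPM in BMAL1 aKO libraries and 817 to 2024 CPM in Cre- libraries, 9 of 10 having a fold change below 0 and none passing by limma, with 3 at an unadjusted p below 0.05. By voomWithQualityWeights and by limma without weights, too, 0 genes of each of these pathway lists passed. Their part in the group differences of the members was not tested.

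To ask whether the 9 genes varied together, Pearson's r was computed for each of the 36 pairs over 10 libraries after the group means were removed, with exact permutation of the libraries within groups and adjustment over the 36 pairs. Of the pairs, 4 passed an adjusted p of 0.1, 10 had an unadjusted p below 0.05, and 26 had a positive r, the median being 0.284. An r of at least 0.7 was reached by 7 of 36 pairs (19.4%), and by 15.2% of all pairs of genes in the libraries. An r of -0.7 or below was reached by 3 of 36 pairs (8.33%), and by 10.2% of all gene pairs. The shares among the members were thus near those of gene pairs at large. After median-of-ratios scaling they were 2 and 5 of 36 (5.56% and 13.9%), against 13.0% and 13.0% of all gene pairs. Without Cre- replicate 3 they were 6 and 1 of 36 (16.7% and 2.78%), against 12.3% and 7.56%.

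**Figure D4:**
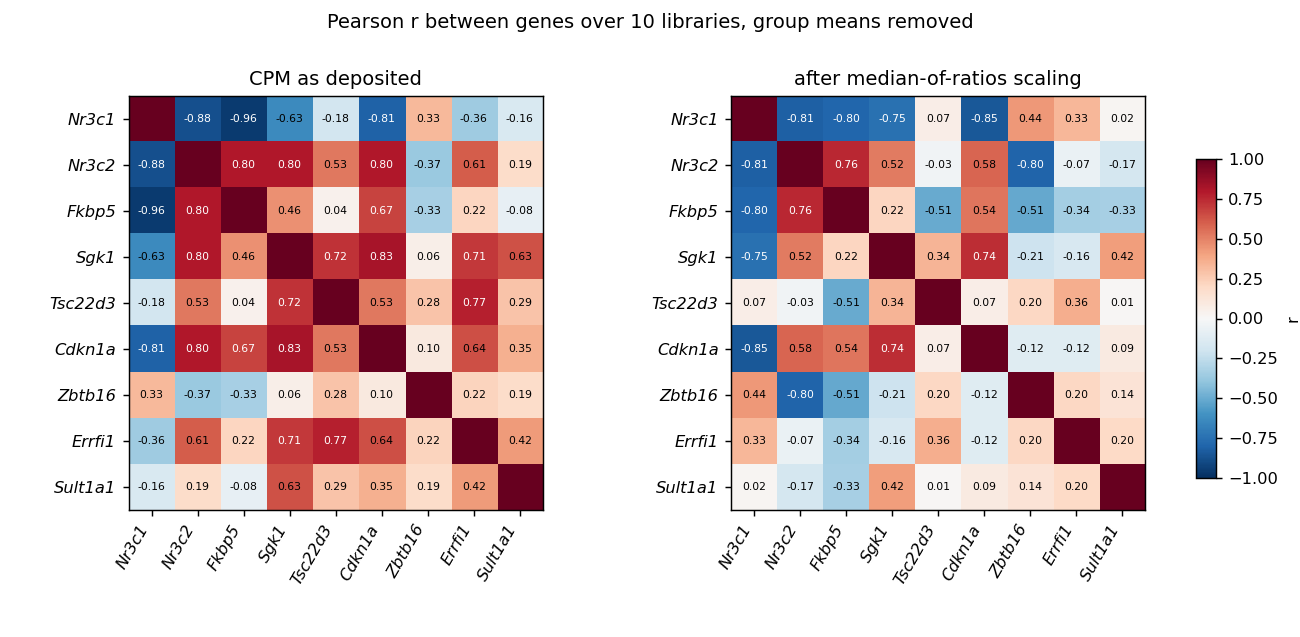
Pearson r between each pair of the 9 genes over 10 libraries with group means removed, from the deposited CPM at the left and after median-of-ratios scaling at the right. Red is positive and blue negative. The median r is 0.284 at the left and 0.045 at the right, and no pair passed the adjusted threshold at the right.

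The pair with the smallest p was the glucocorticoid receptor with its feedback gene, and its sign was negative. Nr3c1 and Fkbp5 had r = -0.957 (exact permutation p = 0.000764, adjusted p = 0.0275) and a Spearman's rho of -0.915 (exact permutation p = 0.00181, adjusted p = 0.0525). Libraries low in Nr3c1 were high in Fkbp5, Cre- replicate 3 being the extreme with 93.6 CPM of Nr3c1 and 35.98 CPM of Fkbp5. Without the 2 libraries farthest from the median of Nr3c1, Cre- replicate 3 and BMAL1 aKO replicate 2, r was -0.887 (exact permutation p = 0.00868). Without Cre- replicate 3 alone it was -0.863 (exact permutation p = 0.0122), and the p adjusted over the 36 pairs was then 0.288. Pooled over both groups, with the group means kept, r was -0.832 (permutation p = 0.00596). Negative r with Nr3c1 were common, as 26.5% of all genes had an r of -0.7 or below with it. That share was 6.38% without Cre- replicate 3 and 25.6% after median-of-ratios scaling.

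Nr3c1 with Cdkn1a had r = -0.805 (exact permutation p = 0.00583, adjusted p = 0.0908) and rho = -0.782 (p = 0.0302, adjusted p = 0.142, exact permutation). Leaving out Cre- replicate 3 and BMAL1 aKO replicate 2 gave r = -0.551 (exact permutation p = 0.127). The relation was no longer past 0.05 without them, while r ran from -0.908 to -0.643 when each library was left out in turn. Without Cre- replicate 3 alone r was -0.643 (p = 0.0493, adjusted p = 0.288, exact permutation). Sgk1 with Cdkn1a had r = 0.826 (exact permutation p = 0.00757, adjusted p = 0.0908) and rho = 0.745 (p = 0.0285, adjusted p = 0.142, exact permutation). Both genes were lowest in Cre- replicate 2 and highest in Cre- replicate 3, and without these libraries r was 0.629 (exact permutation p = 0.0861). This relation too was no longer past 0.05 without them, and r ran from 0.719 to 0.883 when each library was left out in turn. Without Cre- replicate 3 alone r was 0.719 (p = 0.0601, adjusted p = 0.288, exact permutation).

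Nr3c2 with Sgk1 had r = 0.8001 (exact permutation p = 0.0106, adjusted p = 0.0956) and rho = 0.830 (p = 0.00292, adjusted p = 0.0525, exact permutation). Without Cre- replicates 3 and 5 its r was 0.937 (exact permutation p = 0.00694). Without Cre- replicate 3 alone r was 0.737 (exact permutation p = 0.0465) and the adjusted p 0.288. None of the 36 pairs passed the adjusted threshold without Cre- replicate 3, where 4 had an unadjusted p below 0.05 by exact permutation. None passed after TMM, median-of-ratios or quantile scaling either, with 5, 5 and 4 at an unadjusted p below 0.05. In the median-of-ratios values the 4 pairs had r = -0.796 (Nr3c1 and Fkbp5), -0.848 (Nr3c1 and Cdkn1a), 0.737 (Sgk1 and Cdkn1a) and 0.519 (Nr3c2 and Sgk1).

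**Figure D5:**
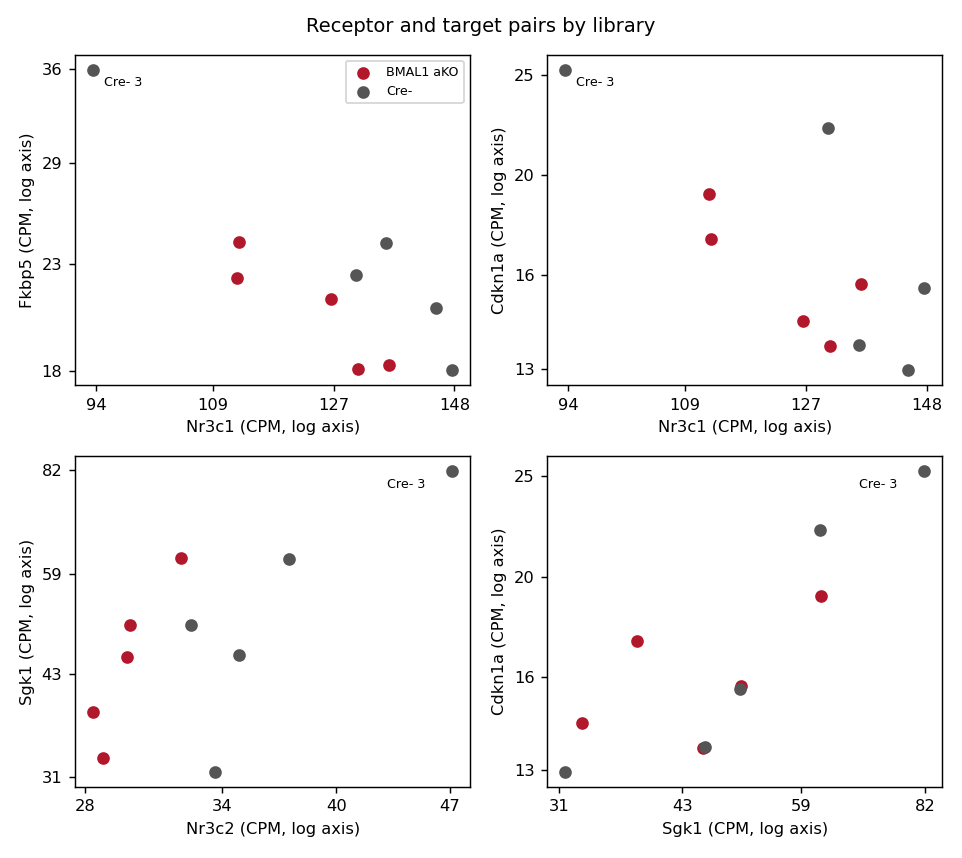
CPM of the genes of the 4 pairs that passed the threshold, 1 point per library on log axes, BMAL1 aKO in red and Cre- in grey. Cre- replicate 3 lies at an extreme of every panel, with 93.6 CPM of Nr3c1, 35.98 CPM of Fkbp5, 47.1 CPM of Nr3c2, 81.8 CPM of Sgk1 and 25.3 CPM of Cdkn1a.

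Levels of other cell types and of mitochondrial transcripts moved with some of the genes. The 9 genes were set against 12 summed levels on the deposited CPM with group means removed, 108 relations in all. Of these, 8 passed an adjusted p of 0.1 by exact permutation, and none did without Cre- replicate 3. The share of all genes that followed each level as closely was not computed. It is therefore not known whether these relations are particular to the members. The relations were not computed after TMM, median-of-ratios or quantile scaling. Nr3c1 followed the neuronal markers (r = 0.925, rho = 0.903, exact permutation p = 0.000625 and 0.00104, adjusted p = 0.025 and 0.0375), and r was 0.752 without the 2 libraries farthest from the median level. Nr3c2 followed the microglial markers (r = 0.956, rho = 0.939, exact permutation p = 0.000486 for both, adjusted p = 0.025 and 0.0375), and r was 0.9003 without the 2 farthest libraries. The microglial markers summed to 220 to 301 CPM in BMAL1 aKO libraries and 220 to 349 CPM in Cre- libraries, and the neuronal markers to 8013 to 9138 CPM in BMAL1 aKO libraries and 7695 to 9167 CPM in Cre- libraries.

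Sgk1 also followed the microglial markers, with r = 0.905 and rho = 0.915 (exact permutation p = 0.000694 and 0.000972, adjusted p = 0.025 and 0.0375), and with r = 0.835 without the 2 farthest libraries. The mitochondrially encoded sum ran against Cdkn1a (r = -0.905, rho = -0.952), Nr3c2 (r = -0.902, rho = -0.927) and Sgk1 (r = -0.858, rho = -0.794). Their adjusted p by exact permutation were 0.0765, 0.0891 and 0.0765 for r, and 0.0619, 0.0938 and 0.102 for rho. Without the 2 farthest libraries r was -0.819, -0.818 and -0.616. Nr3c1 was the only member with a positive r with this sum, 0.821 (rho = 0.806). It did not pass (adjusted p = 0.108 by exact permutation), and its r was 0.450 without the 2 farthest libraries. The mitochondrially encoded sum ran from 61929 to 198810 CPM, and the reads it takes up lower the CPM of other genes. A negative r with it can therefore be partly built into the CPM scale, and how far this holds here was not tested. Errfi1 with the immediate early genes had r = 0.833 and rho = 0.842, and Sult1a1 with 10 endothelial markers had r = 0.836 and rho = 0.758. By exact permutation the adjusted p of each r was 0.0891, and those of rho were 0.0938 (Errfi1) and 0.135 (Sult1a1). For these r was 0.7095 and 0.504 without the 2 farthest libraries (exact permutation p = 0.0944 and 0.273). With the mitochondrial level removed within groups, Nr3c1 and Fkbp5 had r = -0.905 (adjusted p = 0.0308 by exact permutation), while the other 3 pairs had r = -0.256 (Nr3c1 and Cdkn1a), 0.118 (Nr3c2 and Sgk1) and 0.227 (Sgk1 and Cdkn1a). The other 3 pairs that passed then were Nr3c2 and Zbtb16 (r = -0.954, adjusted p = 0.0025), Sgk1 and Sult1a1 (r = 0.875, adjusted p = 0.0369) and Fkbp5 and Tsc22d3 (r = -0.864, adjusted p = 0.0308), by exact permutation. Before that removal their r were -0.370 (Nr3c2 and Zbtb16), 0.635 (Sgk1 and Sult1a1) and 0.040 (Fkbp5 and Tsc22d3). With the endothelial level removed within groups, 4 pairs passed, 3 of them among the first 4, and the median r was -0.014. With the immediate early gene level removed, 3 passed, 2 of them among the first 4, and the median r was -0.035. Counts with the oligodendrocyte or Xist level removed are given below. The microglial and neuronal levels were not removed in this way, and the cause of the pair values was not tested.

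The genes most like each member were listed by r over the 10 libraries, group means removed, as a description. The nearest to Nr3c1 were Ptprd (r = 0.986), Eps15 and Srpk2, and to Nr3c2 Radil (0.983), Zfp346 and Dll1. Fkbp5 was nearest to Cacng4 (0.972), Cstf1 and Asic1, and Sgk1 to Kcnk9 (0.983), Miip and Hdac3. For Tsc22d3 they were Map3k6 (0.962), Golga7 and Clcn5, and for Cdkn1a Get4 (0.9902), Tmem175 and Fbxw9. Zbtb16 was nearest to Hivep1 (0.970), Kalrn and Il17ra, Errfi1 to Grm3 (0.947), Sgsh and Xbp1, and Sult1a1 to Rnf19a (0.926), Nuak1 and Tgfb1i1. The 9 members themselves were left out of these lists. The share of all genes with an r of at least 0.7 was 34.3% for Cdkn1a, 33.2% for Sgk1 and 30.5% for Nr3c2, and 1.93% for Sult1a1 and 2.21% for Zbtb16, all libraries sharing the same tissue and CPM scale. Without Cre- replicate 3 the share was 28.0% for Cdkn1a, 25.6% for Sgk1, 15.6% for Nr3c2, 3.62% for Sult1a1 and 15.4% for Zbtb16. After median-of-ratios scaling it was 24.6% for Cdkn1a, 19.5% for Sgk1, 9.55% for Nr3c2, 0.939% for Sult1a1 and 2.35% for Zbtb16.

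The 7 induced genes were also averaged as standardized values with group means removed. This mean was highest in Cre- replicate 4, at 0.95, and lowest in Cre- replicate 2, at -1.25. BMAL1 aKO libraries lay between -0.70 and 0.45. Both groups have the same average in this measure by construction, so it cannot show a difference between them. Each induced gene is part of this mean, and their r with it depended on the scale and on 1 library. Sgk1 had r = 0.930 with the mean, and 0.899 without Cre- replicate 3 and 0.763 after median-of-ratios scaling. For Zbtb16 the 3 values were 0.319, 0.731 and 0.228, and for Fkbp5 0.416, 0.146 and 0.019. The receptor Nr3c1, which is not part of it, had r = -0.583, -0.467 and -0.4999. The non-members nearest to the mean were Cyp2d22 (r = 0.986), Anks6, Sema4c, Htra3, Fosb, Atp6v0e, Bcat2, Helz2, Prdm11 and Sec61a1, and 33.0% of all genes reached an r of 0.7 with it. After median-of-ratios scaling 8.64% did, and the nearest were Arid3b (r = 0.978), Nr4a1, Plk3, Atp6v0e, Midn, Junb, Dusp5, Fos, Fgd5 and Rnf213, of which Atp6v0e was on both lists.

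The library kit did not mark strand, and the spans of 5 of the 9 genes overlap genes on the opposite strand in GENCODE M21. Where exons are shared, reads of either cannot be told apart. Only whole gene spans were compared, so it is not known whether exons are shared. The 5 were Nr3c2 (Gm10649, Gm24838), Fkbp5 (AC154912.1, Gm22146), Cdkn1a (AC167363.2), Errfi1 (1700045H11Rik) and Sult1a1 (Sgf29), and their values are uncertain to that extent. On the same strand the span of Nr3c2 overlaps Gm23260, and that of Fkbp5 overlaps AC154912.5 and AC154912.3. Nr3c2 spans chr8:76899442-77245012 and Fkbp5 chr17:28399094-28517527 in GRCm38. Tsc22d3 (chrX:140539528-140600659), Sgk1 (chr10:21882184-21999903), Zbtb16 (chr9:48654297-48836222) and Nr3c1 had no such overlap.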

How the data were processed

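RNA from the cortical tissue of 5 BMAL1 aKO and 5 Cre- mice was sequenced. The authors aligned reads with STAR 2.5.1a to GRCm38 and assigned them to genes by featureCounts 1.4.6-p5, and deposited CPM per gene and library. These deposited CPM covered 99.12 to 99.27% of each library and carried no TMM factor. All values were whole reads within 0.01 read, which gave totals of 21844770 to 48295715 reads. Replicates differed by far more than counting noise (chi-square per degree of freedom 12.9 to 447.7) over all genes. Members had 118 (Sult1a1) to 6557 (Nr3c1) reads per library, a counting error of 1.51% (Nr3c1) to 6.99% (Sult1a1). For Errfi1 it was 3.55%, beside a spread of 4.67% in BMAL1 aKO and 6.95% in Cre- libraries, so counting error was close to the spread in BMAL1 aKO libraries.

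A gene entered the tests if 4 or more libraries exceeded 1 CPM, which left 12573. The main test was limma 3.58.1 (R 4.3.3) on log2(CPM + 0.5) (arrayWeights, eBayes with trend, Benjamini-Hochberg over all genes, threshold 0.1, two-sided). Fold changes on this scale understate those of low genes. It stood in for voom, whose version on recovered reads was an alternative, and an edgeR alternative was not run. The fit was tested on simulated data. Quality weights did not converge in 2 of 22 fits, those without Cre- replicate 1 and without Cre- replicate 5. Single genes were tested over all 252 splits of 5 against 5 libraries, and pairs over all 14400 orders of libraries within groups, with SciPy 1.17.1. Pooled r used 100000 permutations. Of the gene names 12550 matched GENCODE M21.

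The members and lists were chosen with earlier results of these data known. Named are every member, in each list of pathway, related or clock genes those past the threshold and the 3 with the smallest p, for each member the 3 genes of highest r and for the mean of the induced members the 10 of highest r, with Arntl and Xist as checks. Aldh1l1, Gja1 and the marker sums were added as checks of the tissue. Gja1, Plin4, Dusp1, Hif3a and Gpd1 were named after their values were seen. The labels list 5 BMAL1 aKO libraries while the study's text gives fewer, so each library was left out in turn. Other alternatives were the pseudocount, filter, weights, scaling, Xist or marker covariates, the threshold and a replicate block.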

Additional observations from a re-analysis of the deposited data

Results flagged for a closer look

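Among 38 groups of 5 libraries looked at, 3 held a library far from the other 4 by Dixon's criterion, and chance gives about 1 in 20. Nr3c1 was low in Cre- replicate 3, at 93.6 CPM against 130.6 to 147.6 CPM in the other Cre- libraries. The 10 immediate early genes summed to 614 CPM in BMAL1 aKO replicate 5, the lowest of its group. The 3 choroid plexus markers measured summed to 1061 CPM in BMAL1 aKO replicate 1, against 13.8 to 30.6 CPM in the other BMAL1 aKO libraries, and to 17.97 to 929 CPM in Cre- libraries.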

How the results depend on the processing

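The fold changes of Nr3c1, Nr3c2, Tsc22d3, Zbtb16, Errfi1 and Sult1a1 stayed below 0 in the 23 alternatives run. Those of Fkbp5 and Sult1a1 moved with single libraries. Fkbp5, at -0.19, was -0.0036 without Cre- replicate 1, the library with the largest weight (7.19), -0.13 without Cre- replicate 3 and -0.10 without Cre- replicate 4. Sult1a1, at -0.11, was -0.26 without Cre- replicate 1, -0.18 without Cre- replicate 4, -0.18 without BMAL1 aKO replicate 2 and -0.0093 without BMAL1 aKO replicate 5. Weights did not converge in the fits without Cre- replicates 1 and 5, so their values are uncertain. Cdkn1a, at 0.10, turned to -0.12 without weights, -0.054 with oligodendrocyte markers as a covariate, -0.10 without Cre- replicate 1 and -0.029 without Cre- replicate 5, and ran from -0.10 to 0.17 when each library was left out. Sgk1, at -0.06, turned to 0.089 with Xist as a covariate and 0.076 without BMAL1 aKO replicate 5, and ran from -0.18 to 0.076 when each library was left out. Members past the threshold were 0 throughout, except for 2 with the oligodendrocyte covariate, Nr3c2 (-0.26, limma adjusted p = 0.0775) and Tsc22d3 (-0.24, adjusted p = 0.0983). The same covariate gave 1360 genes past the threshold (10.8%) instead of 42. That count was 4 without weights, 4 without weights and without Cre- replicate 3 (chosen after seeing the data), 68 after TMM scaling, 65 after quantile normalization, 22 with Xist, 20 at a threshold of 0.05, and 1 (without Cre- replicate 1) to 843 (without BMAL1 aKO replicate 3) when each library was left out. The cause was not tested.

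The 4 pairs became 0 after TMM, median-of-ratios or quantile scaling, 13 with group means kept, 2 by Spearman's rho, 7 with Xist and 12 with oligodendrocyte markers removed, 1 at a threshold of 0.05, and 0 (without Cre- replicate 3) to 8 (without BMAL1 aKO replicate 1) when each library was left out. With endothelial markers removed 4 passed, and with immediate early genes removed 3. Removing the mitochondrial level (chosen after seeing the data) left 4, of which 1 was shared with the first 4. The alternative with edgeR was not run.

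The shared replicate numbers did not pair the libraries, with r of -0.625 to 0.364 over 5 pairs, and 0 BMAL1 aKO and 1 Cre- libraries correlated best with the library of their own number. With a replicate block 7 genes, 0 members and 0 pairs passed, Fkbp5 was at 0.024 and Cdkn1a at -0.089.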
